A study of Mus musculus with 12 samples.

Results

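Tetraspanins are small membrane proteins that span the membrane several times and gather other surface proteins into microdomains. On lymphocytes they hold coreceptors, integrins and MHC molecules in place, and several of them set the strength of antigen receptor signals and of adhesion. A subfamily named TspanC8 carries the protease ADAM10 to the cell surface, where it sheds Notch and other proteins. The genes described here were those whose symbol in the platform annotation is Tspan followed by a number, or is one of Cd9, Cd37, Cd53, Cd63, Cd81, Cd82 and Cd151, read from probe sets that name 1 gene. This gave 25 tetraspanin genes with 56 probe sets, of 18193 genes with 45037 probe sets. They comprise 7 leukocyte tetraspanins (Cd9, Cd37, Cd53, Cd81, Cd82, Cd151 and Tspan32), the 6 TspanC8 genes (Tspan5, Tspan10, Tspan14, Tspan15, Tspan17 and Tspan33) and 12 other Tspan genes. No probe set used here names Cd63 or Tspan7 alone, so neither is described.

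RNA of regulatory T cells (Treg, CD4+CD25+, which restrain immune responses and depend on the factor Foxp3) and of conventional T cells (Tconv, CD4+CD25-) from mouse spleens was measured on Affymetrix expression arrays. The 12 arrays form 4 groups of 3: NOD Treg, NOD Tconv, B6.H2g7 Treg and B6.H2g7 Tconv. NOD mice develop autoimmune diabetes spontaneously, and B6.H2g7 mice are B6 mice that carry the NOD type MHC class II region (Ag7), so that both strains share it. No mouse is labelled as treated. All mice were 6 weeks old, and each array holds pooled RNA of 3 mice. Cells were enriched magnetically by CD25 and sorted in repeated passes for CD4 with CD25 high (Treg) or absent (Tconv), and without CD8a, CD11b, CD69 and B220. CD25 therefore chose the groups. On restaining, 89, 95 and 95% of the cells behind the NOD Treg arrays and 94, 96 and 96% of those behind the B6.H2g7 Treg arrays were Foxp3+. Values below are log2 of the deposited intensity, changes are differences of these values, and errors of means are SDs.

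The labelled cell types carried their defining markers. Foxp3 lay between 10.67 and 11.26 on the 6 Treg arrays and between 5.57 and 6.24 on the 6 Tconv arrays. All 4 Treg markers (Foxp3, Il2ra, Ikzf2 and Ctla4) were higher in Treg. Il2ra encodes CD25, which chose the groups, so its difference was set by the sort. Of 6 T cell markers Cd4 alone passed the test averaged over strains, lower in Treg. No marker list of monocytes, dendritic cells, neutrophils, erythroid, stromal or CD8 T cells had a member that passed the test between Treg and Tconv averaged over strains. Among the others, 1 of 7 B cell genes (Cd79b) and 1 of 4 plasma cell genes (Xbp1) passed, both higher in Treg. Both lower in Treg, 1 of 4 NK cell genes (Klrd1, -3.98) and 1 of 5 platelet genes (Itgb3, -1.68) passed too. Arrays of a group correlated at 0.983 to 0.996. The actin 3' minus 5' difference, a sign of RNA length, ranged from 2.66 to 4.70 and was lowest in replicate 1 of NOD Treg, NOD Tconv and B6.H2g7 Treg.

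Promoter sequence was looked at because 3 of the tetraspanin genes, Cd81, Tspan3 and Tspan14, moved between Treg and Tconv as described below. The RefSeq windows (GRCm38.p6) run from 250 bases before to 50 bases after a gene's start, and 24 of the 25 genes had 34 of them, all but Tspan18. Each is printed 5′ to 3′ on the gene's strand, with motif matches in capitals. The Cd81 window lies at chr7:143052500-143052799 on the plus strand, the Tspan3 window at chr9:56161021-56161320 on the minus strand, and the first of 2 Tspan14 windows at chr14:40966847-40967146 on the minus strand.
Cd81: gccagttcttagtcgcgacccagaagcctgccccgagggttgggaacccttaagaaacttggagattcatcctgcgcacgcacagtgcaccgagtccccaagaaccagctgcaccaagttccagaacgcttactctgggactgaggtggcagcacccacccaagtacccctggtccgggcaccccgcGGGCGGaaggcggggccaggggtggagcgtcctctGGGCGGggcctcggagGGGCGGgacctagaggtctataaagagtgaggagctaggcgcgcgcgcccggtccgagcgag
Tspan3: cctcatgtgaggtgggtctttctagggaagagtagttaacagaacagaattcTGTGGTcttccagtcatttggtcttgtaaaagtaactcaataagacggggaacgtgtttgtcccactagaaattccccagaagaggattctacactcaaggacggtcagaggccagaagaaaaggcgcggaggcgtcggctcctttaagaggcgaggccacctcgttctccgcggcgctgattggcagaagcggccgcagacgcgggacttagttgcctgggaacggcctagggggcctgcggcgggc
Tspan14: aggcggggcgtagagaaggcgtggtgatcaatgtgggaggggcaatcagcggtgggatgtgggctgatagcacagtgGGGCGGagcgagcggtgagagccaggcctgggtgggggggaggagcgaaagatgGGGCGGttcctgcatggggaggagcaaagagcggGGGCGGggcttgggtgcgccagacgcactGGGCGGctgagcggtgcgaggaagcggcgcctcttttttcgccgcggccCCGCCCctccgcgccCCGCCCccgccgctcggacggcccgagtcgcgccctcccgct
The capitals in the Cd81 and Tspan14 windows mark the GC box GGGCGG or its reverse complement CCGCCC, and in the Tspan3 window the RUNX motif TGTGGT.

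The 5 motifs were searched on both strands of the windows, where the STAT and ETS letters can share bases in a window. The forkhead motif GTAAACA was in 1 of the 34 tetraspanin windows (2.94%, against 3.65% of all 32851 windows). The STAT motif TTCNNNGAA was in 2 (5.88%, against 8.3%), the RUNX motif TGTGGT in 6 (17.6%, against 16.8%) and the ETS motif CCGGAA in 6 (17.6%, against 14.9%). The GC box was in 15 (44.1%, against 35.7%). None of the printed windows holds the forkhead, STAT or ETS letters, the Cd81 window has 3 GC boxes and the Tspan14 window 6. Bases G and C made up 65.7% of the Cd81 window, 55.7% of the Tspan3 window and 72.3% of the Tspan14 window, against a median of 52.7% over all windows. A match describes these letters only.

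Between Treg and Tconv, the tetraspanins showed 1 large change and a few small ones. Cd81 was 2.99-fold higher in Treg than in Tconv in NOD and 3.15-fold higher in B6.H2g7, Tspan3 was modestly higher, and Tspan14 was lower in the Treg of NOD mice. In NOD mice 3 of 25 tetraspanin genes passed the test (12%, 2 higher and 1 lower), against a background of 4.38% of all genes. In B6.H2g7 mice 2 passed (8%, both higher), against 4.55% of all genes. Averaged over the strains 3 passed (12%, 2 higher and 1 lower), against 7.5%. The call was a limma adjusted p under 0.05, with each gene read from its probe set of highest mean. The median change of the 25 genes was -0.01 in NOD, 0.01 in B6.H2g7 and 0.02 averaged, against -0.02, 0.00 and -0.01 over all genes. Such bulk values cannot tell fewer cells of a type from less RNA per cell.

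Cd81 encodes a leukocyte tetraspanin that costimulates T cells. It measured 10.08, 10.10 and 10.42 on the NOD Treg arrays, against 8.49, 8.71 and 8.66 on the NOD Tconv arrays. On the B6.H2g7 Treg arrays it measured 10.47, 10.43 and 10.33, against 8.82, 8.95 and 8.49 on the B6.H2g7 Tconv arrays. The lowest Treg array stood above the highest Tconv array in each strain, with a wide gap. The change was 1.58 ± 0.13 in NOD (SE, n = 3 arrays each, 2.99-fold, limma adjusted p 1.25e-05) and 1.65 ± 0.13 in B6.H2g7 (SE, n = 3 arrays each, 3.15-fold, limma adjusted p 7e-06). Cd81 passed the test under each of the 9 other settings and without any single array, in both strains. Because B cells also carry Cd81, their marker list was set beside it. The summed B cell intensity was 2748 to 3333 in NOD Treg against 3196 to 3614 in NOD Tconv, and 2917 to 3280 in B6.H2g7 Treg against 3434 to 3759 in B6.H2g7 Tconv. Most of this sum comes from the Ighm probe set, which averaged 11.04 in NOD Treg and 11.34 in NOD Tconv, and 11.13 in B6.H2g7 Treg and 11.48 in B6.H2g7 Tconv. Of the 7 B cell members Cd79b passed, higher in Treg by 0.79 averaged over strains (limma adjusted p 1.56e-05), and the other 6 did not. Of the 4 plasma cell members Xbp1 passed, higher in Treg by 0.99 averaged over strains, and the other 3 did not. The part of B cells and plasma cells in the Cd81 change was not tested.

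**Figure D1:**
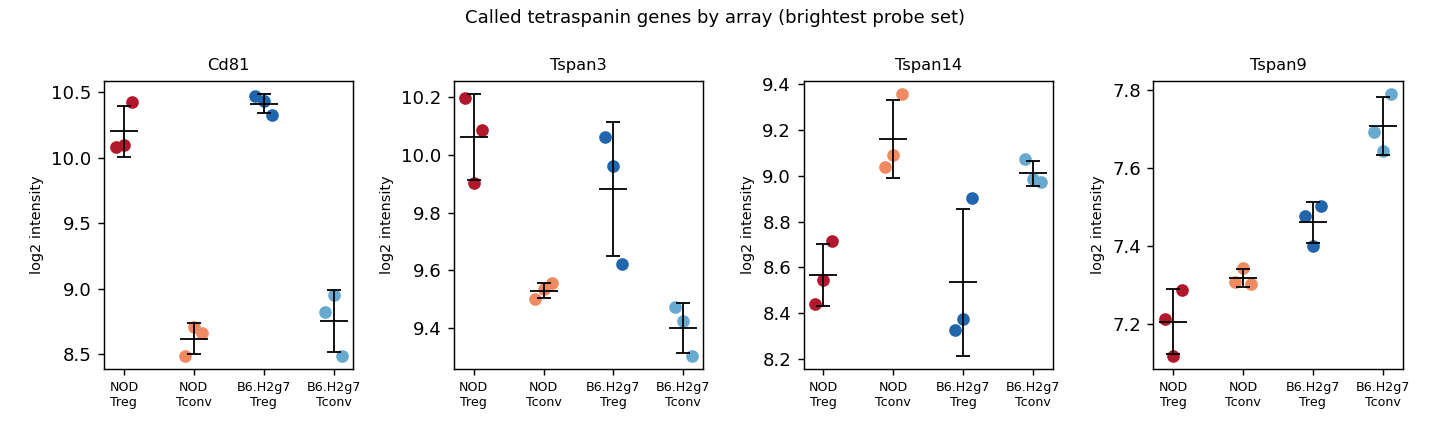
Log2 intensity (vertical axis, a separate range per gene) of the 4 tetraspanin genes that passed the test in any comparison, on each of the 12 arrays, with the mean and SD of each group (n = 3). Cd81 lies above 10 on all 6 Treg arrays and under 9 on all 6 Tconv arrays, and Tspan9 is lowest in NOD.

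Tspan3, a widely expressed tetraspanin, measured 10.20, 9.90 and 10.09 in NOD Treg, against 9.50, 9.53 and 9.55 in NOD Tconv. It measured 10.06, 9.96 and 9.62 in B6.H2g7 Treg, against 9.47, 9.42 and 9.30 in B6.H2g7 Tconv. The groups did not overlap in either strain, but replicate 3 of B6.H2g7 Treg lay close to its Tconv arrays. The change was 0.53 ± 0.12 in NOD (SE, n = 3 arrays each, 1.45-fold, limma adjusted p 0.0261) and 0.48 ± 0.12 in B6.H2g7 (SE, n = 3 arrays each, 1.4-fold, limma adjusted p 0.0444). Averaged over strains it was 0.51 ± 0.08 (limma adjusted p 0.0019) and stayed past the threshold without any single array. The strain calls were less firm. In NOD the limma adjusted p was 0.0784 to 0.102 without replicate 1 or 3 of NOD Treg or any 1 array of NOD Tconv. In B6.H2g7 it was 0.0631 to 0.161 without replicate 3 of NOD Treg, any 1 array of NOD Tconv or of B6.H2g7 Tconv, or replicate 1 or 2 of B6.H2g7 Treg.

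Tspan14 is a TspanC8 member that carries ADAM10. It measured 8.44, 8.55 and 8.71 in NOD Treg, against 9.04, 9.09 and 9.36 in NOD Tconv. In B6.H2g7 Treg it measured 8.33, 8.38 and 8.90, against 9.07, 8.99 and 8.97 in B6.H2g7 Tconv. Every Treg array was below every Tconv array of its strain, with replicate 3 of B6.H2g7 Treg nearest to the Tconv arrays. The change was -0.59 ± 0.15 in NOD (SE, n = 3 arrays each, 1.51-fold lower, limma adjusted p 0.0477), -0.47 ± 0.15 in B6.H2g7 (limma adjusted p 0.137) and -0.53 ± 0.10 averaged over strains (limma adjusted p 0.00638). In NOD the call was lost on leaving out any single array other than replicates 1 and 3 of B6.H2g7 Treg, with a limma adjusted p of 0.0554 to 0.205. It was also lost with quantile normalization, at -0.56 (limma adjusted p 0.117), and without the 4 arrays numbered replicate 1, at -0.59 (limma adjusted p 0.14). The averaged call held without any single array and was lost without all 4 arrays numbered replicate 1, at -0.47 (limma adjusted p 0.056).

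The other 5 TspanC8 genes did not pass the test between Treg and Tconv in either strain or averaged. Their partner protease Adam10 averaged 10.96 ± 0.26 in NOD Treg and 11.20 ± 0.15 in NOD Tconv, and 11.08 ± 0.26 in B6.H2g7 Treg and 10.92 ± 0.40 in B6.H2g7 Tconv (SD, n = 3 each). The averaged change of Adam10 was -0.04, with a 95% interval of -0.35 to 0.26 (limma adjusted p 0.963). Of the ADAM10 substrates, Notch2 was higher in Treg by 0.83 averaged over strains (limma adjusted p 2.3e-05), while its second probe set gave -0.06 and Notch1 did not pass.

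**Figure D2:**
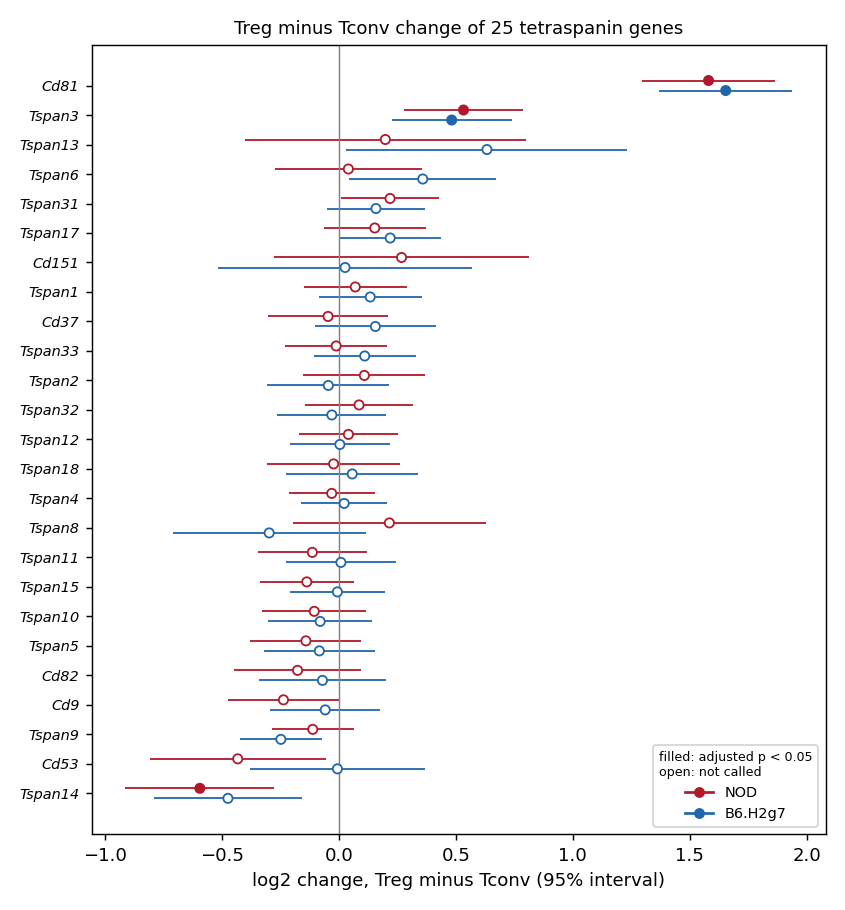
Change from Tconv to Treg (log2, horizontal axis) of the 25 tetraspanin genes in NOD and B6.H2g7, with 95% intervals, where filled points passed the limma adjusted p of 0.05. Cd81 stands far to the right at 1.58 and 1.65, Tspan3 is next among the filled points and Tspan14 is lowest. The open points run from -0.43 to 0.27 in NOD and from -0.47 to 0.63 in B6.H2g7.

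Among the remaining leukocyte tetraspanins no gene passed the test between Treg and Tconv. Cd53, found on leukocytes in general, measured 12.06, 11.53 and 11.78 in NOD Treg, against 12.46, 12.16 and 12.03 in NOD Tconv. In B6.H2g7 Treg it measured 12.45, 11.92 and 11.95, against 12.11, 12.28 and 11.96 in B6.H2g7 Tconv. On this brightest probe set the groups overlapped in both strains. The changes were -0.43 (95% interval -0.81 to -0.06, limma adjusted p 0.342) in NOD and -0.01 (95% interval -0.38 to 0.37) in B6.H2g7. The second Cd53 probe set measured 9.33, 9.69 and 8.53 in B6.H2g7 Treg, against 10.16, 10.16 and 9.85 in B6.H2g7 Tconv, without overlap. That change of -0.88 did not pass the test, and on the same probe set the NOD arrays overlapped. Cd37, which restrains T cell proliferation in mice, measured 10.33, 10.26 and 10.40 in NOD Treg, against 10.54, 10.24 and 10.35 in NOD Tconv. It measured 10.30, 10.23 and 10.58 in B6.H2g7 Treg, against 10.38, 10.09 and 10.17 in B6.H2g7 Tconv. The Cd37 arrays overlapped throughout, and the averaged change was 0.05 (95% interval -0.13 to 0.24). Tspan32, also a restraint on T cell proliferation in mice, had an averaged value of 0.03 (95% interval -0.14 to 0.19). Its second probe set gave 0.37 averaged and did not pass. There the B6.H2g7 Treg arrays lay above the B6.H2g7 Tconv arrays, while the NOD arrays overlapped. Cd9, known for sperm-egg fusion, had an averaged value of -0.15 (95% interval -0.32 to 0.02), and Cd151, which binds laminin-binding integrins, of 0.15 (95% interval -0.24 to 0.53).

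Over all tetraspanin genes that did not pass, the NOD changes of 22 genes ran from -0.43 (Cd53) to 0.27 (Cd151), with 95% intervals between -0.81 and 0.81. In B6.H2g7 the 23 changes ran from -0.47 (Tspan14) to 0.63 (Tspan13), with intervals between -0.79 and 1.23. The groups did not overlap for 5 of 25 genes in NOD, against 19.3% of all genes, and for 8 of 25 in B6.H2g7, against 16.6%. With the arrays of both strains pooled, all Treg against all Tconv arrays, there was no overlap for 3 of 25, against 4.83%. Tspan12, which acts in Norrin signalling in the retina, was dim in every group, with means of 2.99 to 3.05 under the 25th percentile of probe set means (5.28). The other 24 genes were dim in no group.

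Whether the change from Tconv to Treg differed between the strains was tested directly. None of the 25 genes passed (0%), against 0.11% of all genes, and 0 reached an unadjusted p under 0.05 in limma. The differences, NOD change minus B6.H2g7 change, ran from -0.43 (Tspan13) to 0.51 (Tspan8), with 95% intervals between -1.28 and 1.10. For Cd81 the difference was -0.07 (95% interval -0.48 to 0.33), for Tspan3 0.05 (95% interval -0.31 to 0.41) and for Tspan14 -0.12 (95% interval -0.57 to 0.33). The pass of Tspan14 in NOD and not in B6.H2g7 is therefore not shown to be a strain difference.

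Several tetraspanin genes are read by more than 1 probe set, 17 of the 25, and the probe sets did not always give the same result. Of all 56 probe sets, 6 passed between NOD Treg and NOD Tconv (5 higher and 1 lower), against 3.2% of all probe sets. In B6.H2g7 3 passed, all higher, against 3.37%, and averaged over strains 6 passed (5 higher and 1 lower), against 5.84%. For the strain difference in this change 0 of 56 passed in limma, against 0.0933%, with 1 at an unadjusted p under 0.05. The probe sets beyond those of Cd81, Tspan3 and Tspan14 belonged to Tspan2, Tspan6 and Tspan31. Each was a dimmer probe set of a gene whose brightest one did not pass.

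The dimmer Tspan2 probe set measured 7.24, 7.51 and 7.60 in NOD Treg, against 6.68, 6.79 and 6.69 in NOD Tconv. In B6.H2g7 Treg it measured 7.28, 7.34 and 7.59, against 6.85, 6.79 and 6.90 in B6.H2g7 Tconv. All Treg arrays were above all Tconv arrays, with changes of 0.73 ± 0.11 in NOD (SE, n = 3 arrays each, limma adjusted p 0.00208) and 0.56 ± 0.11 in B6.H2g7 (SE, n = 3 arrays each, limma adjusted p 0.0126). The brightest Tspan2 probe set gave 0.11 in NOD (95% interval -0.15 to 0.37) and -0.05 in B6.H2g7 (95% interval -0.31 to 0.22), and its Treg and Tconv arrays overlapped in both strains. The B6.H2g7 call of the dimmer Tspan2 probe set was lost without replicate 3 of B6.H2g7 Treg or replicate 2 of B6.H2g7 Tconv (limma adjusted p 0.0554 and 0.0642) and with only the B6.H2g7 arrays (0.0517).

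The dimmer Tspan6 probe set measured 7.15, 7.07 and 7.09 in NOD Treg, against 6.31, 6.35 and 6.63 in NOD Tconv, a change of 0.67 ± 0.13 (SE, n = 3 arrays each, limma adjusted p 0.0113). In B6.H2g7 it measured 7.08, 6.90 and 6.61 in Treg, against 6.53, 6.31 and 6.24 in Tconv, a difference of 0.51 ± 0.13 (limma adjusted p 0.0568). Treg arrays were above Tconv arrays in both strains, with a narrow gap in B6.H2g7. The brightest Tspan6 probe set gave 0.04 in NOD and 0.36 in B6.H2g7, neither past the threshold. The NOD call of the dimmer Tspan6 probe set was lost without replicate 1 or 2 of NOD Tconv (limma adjusted p 0.0611 and 0.0598) and without the 4 replicate 1 arrays (0.0649). Tspan31, a gene amplified in some human sarcomas, gave 7.21, 7.28 and 7.35 in NOD Treg, against 6.97, 6.69 and 6.89 in NOD Tconv, on its second probe set. On the B6.H2g7 Treg arrays that probe set gave 7.40, 7.18 and 7.46, against 7.09, 6.91 and 6.90 on the B6.H2g7 Tconv arrays. Its groups did not overlap, and its changes were 0.43 in NOD (limma adjusted p 0.0469) and 0.38 in B6.H2g7 (limma adjusted p 0.092), while the brightest probe set gave 0.22 and 0.16. The NOD call of Tspan31 was lost on leaving out any single array other than replicates 2 and 3 of B6.H2g7 Treg, with values of 0.35 to 0.50 (limma adjusted p 0.0508 to 0.209). The Tspan31 call was also lost with arrays centred on their median (0.0543), with only the NOD arrays (0.0667) and without the replicate 1 arrays (0.0829). Averaged over strains, the dimmer probe sets of Tspan2, Tspan6 and Tspan31 changed by 0.65, 0.59 and 0.41, all past the threshold.

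**Figure D3:**
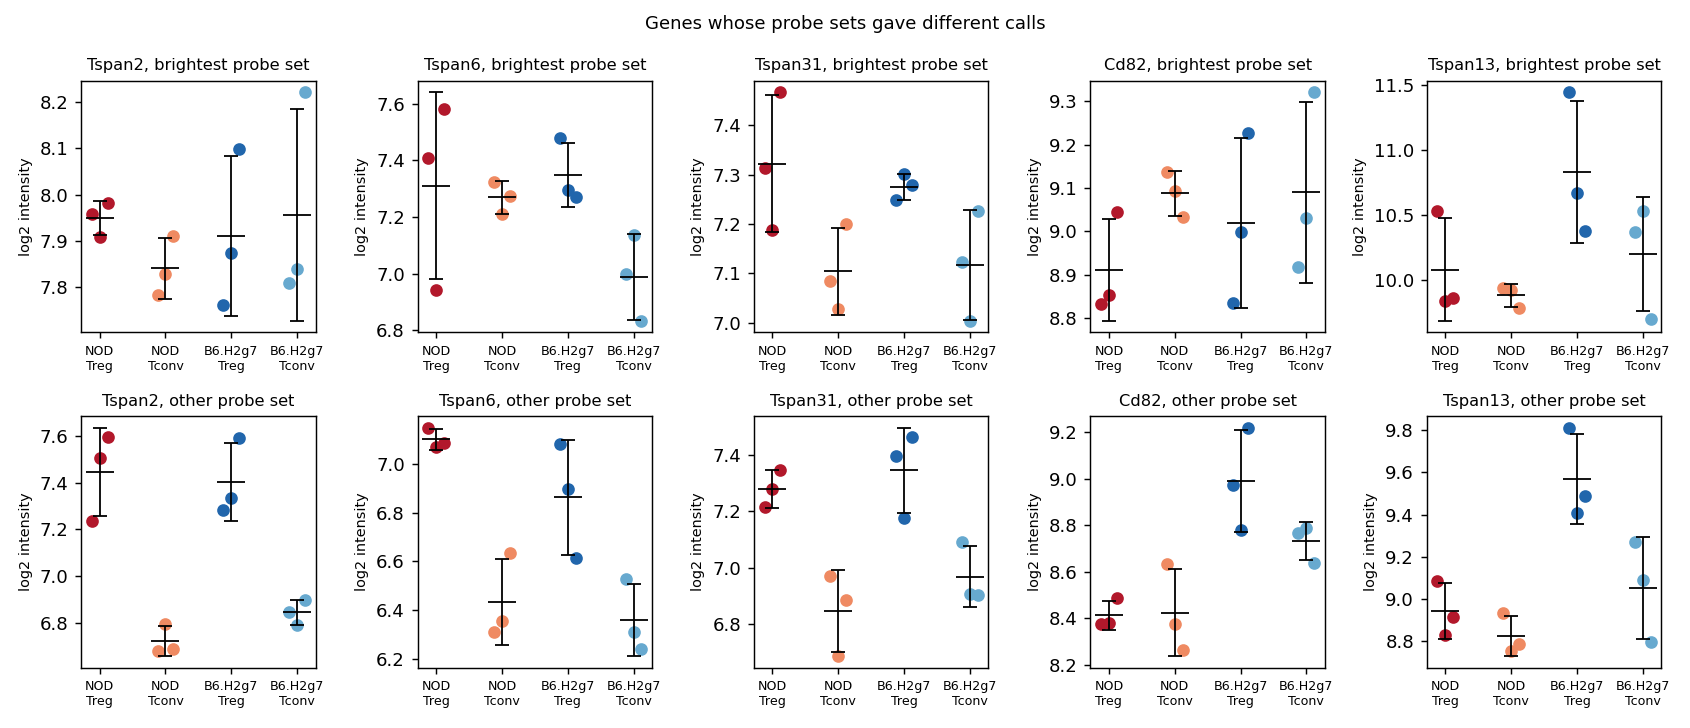
Log2 intensity (vertical axis) on each of the 12 arrays for Tspan2, Tspan6, Tspan31, Cd82 and Tspan13, with the brightest probe set above, another probe set of the same gene below, and the mean and SD of each group (n = 3). The Treg arrays stand above the Tconv arrays in the lower panels of Tspan2, Tspan6 and Tspan31, and the NOD Treg arrays below the B6.H2g7 Treg arrays in the lower panels of Cd82 and Tspan13.

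Between the strains few tetraspanins passed the test. In Treg, none of the 25 genes passed the test between NOD and B6.H2g7 (0%, against 3.33% of all genes), and 3 had an unadjusted p under 0.05 in limma. In Tconv 1 gene, Tspan9, passed (4%, against 3.05%). The changes, NOD minus B6.H2g7, ran from -0.75 (Tspan13) to 0.21 (Tspan8) in Treg, and among the genes that did not pass from -0.32 (Tspan13) to 0.28 (Tspan6) in Tconv. Their median was 0.01 in Treg and 0.04 in Tconv over the 25 genes, against 0.00 and 0.03 over all genes. The strains did not overlap for 1 of 25 genes in Treg, against 14% of all genes, and for 5 of 25 in Tconv, against 17.7%.

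Tspan9, a tetraspanin of platelets and other cells, measured 7.31, 7.34 and 7.30 in NOD Tconv, against 7.69, 7.64 and 7.79 in B6.H2g7 Tconv. In NOD Treg it measured 7.21, 7.12 and 7.29, against 7.48, 7.40 and 7.50 in B6.H2g7 Treg. All NOD arrays were below all B6.H2g7 arrays of the same cell type. The difference was -0.39 ± 0.08 in Tconv (SE, n = 3 arrays each, 1.31-fold lower, limma adjusted p 0.018) and -0.25 ± 0.08 in Treg (limma adjusted p 0.163). The second Tspan9 probe set gave 0.07 in Tconv (95% interval -0.15 to 0.29), so the call rests on 1 probe set. It was also lost without any 1 of the NOD Tconv arrays or replicate 1 or 3 of B6.H2g7 Tconv, at a limma adjusted p of 0.0547 to 0.0764.

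Tspan13 measured 10.54, 9.84 and 9.86 in NOD Treg, against 11.45, 10.67 and 10.38 in B6.H2g7 Treg, on its brightest probe set. In NOD Tconv it measured 9.94, 9.92 and 9.78, against 10.37, 10.53 and 9.70 in B6.H2g7 Tconv. Replicate 1 was the highest array of both Treg groups, and those arrays also had the lowest actin 3' minus 5' differences of their groups, at 3.29 and 2.66. The difference in Treg was -0.75 ± 0.28 (SE, n = 3 arrays each, limma adjusted p 0.271). With the replicate number as a block over all 12 arrays, the limma adjusted p was 0.0269. Same-numbered arrays correlated between the Treg groups (0.30 to 0.67), but not throughout between B6.H2g7 Treg and B6.H2g7 Tconv (-0.08 to 0.52). Whether the numbers mark a pairing or a shared RNA length was not tested. The Tspan13 difference was -0.60 once the actin difference entered the fit (limma adjusted p 0.0162). With the actin covariate Tspan13 also passed between Treg and Tconv, at 0.50 averaged over strains (limma adjusted p 0.00277). The part of RNA length in the value was not tested beyond this covariate.

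The second Tspan13 probe set passed without either term. It measured 9.09, 8.83 and 8.91 in NOD Treg, against 9.81, 9.41 and 9.49 in B6.H2g7 Treg, a difference of -0.63 ± 0.14 (SE, n = 3 arrays each, limma adjusted p 0.0243). No NOD Treg array reached a B6.H2g7 Treg array. This Tspan13 call was lost without replicate 2 or 3 of NOD Treg (limma adjusted p 0.111 and 0.0973), without replicate 1 or 3 of B6.H2g7 Treg (0.0943 and 0.0511), and with only the Treg arrays (0.0656). Within B6.H2g7 it was also just outside the call between Treg and Tconv, at 0.52 (limma adjusted p 0.0702), as it was averaged over strains, at 0.32 (limma adjusted p 0.0902). In all, 2 of 56 tetraspanin probe sets passed between NOD and B6.H2g7 in Treg, both lower in NOD, against 3.26% of all probe sets. In Tconv 1 of 56 passed, against 2.96%. The other probe set in Treg was the second one of Cd82 (KAI1, a metastasis suppressor). It measured 8.38, 8.38 and 8.48 in NOD Treg, against 8.97, 8.78 and 9.22 in B6.H2g7 Treg, without overlap. The difference was -0.58 ± 0.12 (SE, n = 3 arrays each, limma adjusted p 0.0199), whereas the brightest Cd82 probe set gave -0.11 (95% interval -0.38 to 0.16). The Cd82 call was lost without any 1 of the NOD Treg arrays or replicate 1 or 3 of B6.H2g7 Treg, with values of -0.61 to -0.46 (limma adjusted p 0.0513 to 0.0809). It was also lost with only the Treg arrays (0.0726) and without the 4 replicate 1 arrays (0.105). Whether sequence differences between the strains under these probes bear on the values was not tested.

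**Figure D4:**
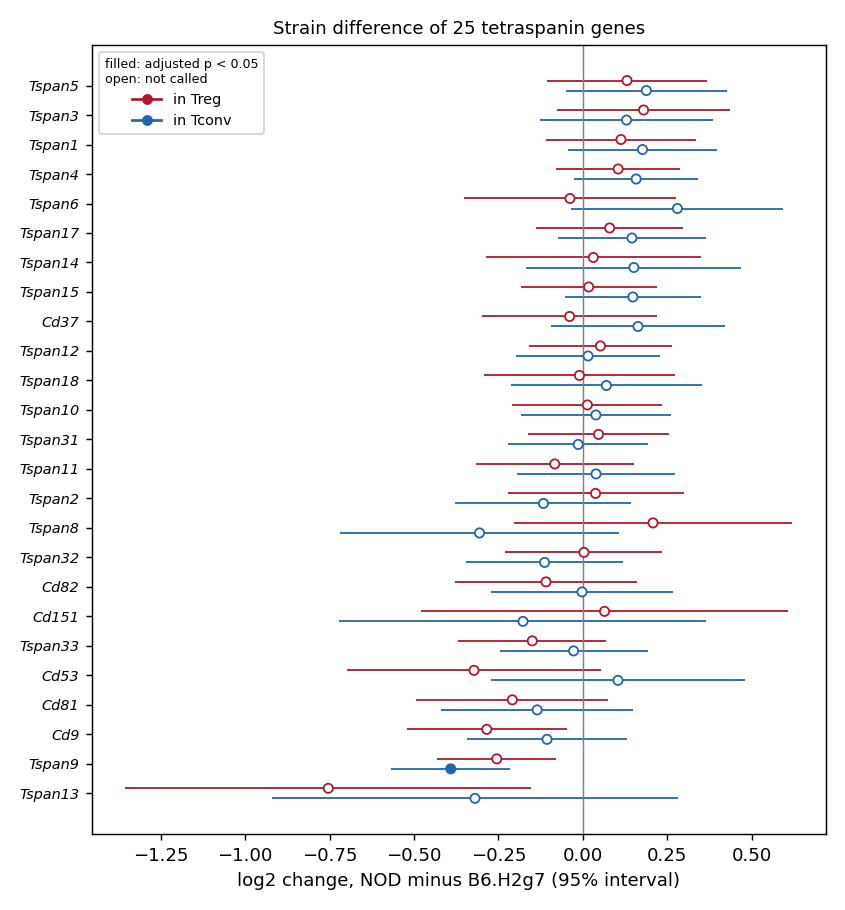
Difference between NOD and B6.H2g7 (log2, horizontal axis) of the 25 tetraspanin genes by brightest probe set in Treg and in Tconv, with 95% intervals, where filled points passed the limma adjusted p of 0.05. Tspan9 in Tconv is the filled point at -0.39, and Tspan13 in Treg lies farthest left at -0.75 with a wide interval.

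Proteins that tetraspanins bind, traffic or signal through were described from a list of 53 partner and regulator genes, of which 52 were measured. Averaged over strains 18 passed between Treg and Tconv, 14 higher and 4 lower (34.6%, against 7.5% of all genes), with a median change of 0.10. In NOD 12 passed, 10 higher and 2 lower (23.1%, against 4.38%), and in B6.H2g7 13, 11 higher and 2 lower (25%, against 4.55%). The list was chosen with results of these data known and holds several T cell activation genes, so its counts say nothing of tetraspanin function.

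Among the partners in tetraspanin membrane domains, Igsf3, a relative of the tetraspanin-binding EWI proteins, averaged 8.31 ± 0.15 in NOD Treg and 6.78 ± 0.16 in NOD Tconv, and 7.93 ± 0.23 in B6.H2g7 Treg and 6.87 ± 0.53 in B6.H2g7 Tconv (SD, n = 3 each). It was higher in Treg by 1.29 averaged over strains (limma adjusted p 0.000122). Ptgfrn, an EWI protein that binds CD9 and CD81, changed by -0.53 from Tconv to Treg averaged over strains (limma adjusted p 0.0106). It averaged 6.85 ± 0.15 in NOD Treg and 6.93 ± 0.20 in NOD Tconv, and 5.83 ± 0.30 in B6.H2g7 Treg and 6.81 ± 0.16 in B6.H2g7 Tconv (SD, n = 3 each), so that the lone low group was B6.H2g7 Treg. In Treg Ptgfrn was therefore higher in NOD than in B6.H2g7, by 1.02 (limma adjusted p 0.00205). Its second probe set gave 0.08 there and did not pass. Igsf8, the other EWI protein that binds CD9 and CD81, did not pass in any comparison.

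Zdhhc2, an enzyme that palmitoylates tetraspanins, averaged 7.81 ± 0.12 in NOD Treg and 7.03 ± 0.08 in NOD Tconv, and 7.10 ± 0.05 in B6.H2g7 Treg and 6.62 ± 0.06 in B6.H2g7 Tconv (SD, n = 3 each). It was higher in Treg than in Tconv by 0.79 in NOD and 0.48 in B6.H2g7, and higher in NOD than in B6.H2g7 by 0.72 in Treg and 0.41 in Tconv. A second Zdhhc2 probe set passed in the strain comparisons too, at 1.09 in Treg and 0.79 in Tconv, and the other 2 probe sets did not. Prkca, the protein kinase C that tetraspanins link to integrins, was higher in Treg by 1.07 averaged and lower in NOD than in B6.H2g7, with differences of -0.67 in Treg and -0.72 in Tconv. Prkcb, another member of that kinase family, fell by 0.31 in Treg averaged over strains. The Prkcb change was -0.46 in NOD (limma adjusted p 0.0395) and -0.16 in B6.H2g7 (limma adjusted p 0.666). Sdcbp2, a relative of the CD63-binding syntenin, was lower in NOD, with differences of -1.22 in Treg and -0.66 in Tconv, and higher in B6.H2g7 Treg than in B6.H2g7 Tconv by 0.56, while syntenin itself (Sdcbp) did not pass in any comparison.

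Among integrins, Itgb3, the beta 3 chain, averaged 7.94 ± 0.28 in NOD Treg and 10.18 ± 0.20 in NOD Tconv, and 10.30 ± 0.45 in B6.H2g7 Treg and 11.43 ± 0.14 in B6.H2g7 Tconv (SD, n = 3 each). Its change from Tconv to Treg was -1.68 averaged over strains, and its difference between NOD and B6.H2g7 was -2.36 in Treg and -1.25 in Tconv, with the other Itgb3 probe set at -0.09, -0.07 and -0.04. The platelet genes Pf4, Ppbp, Itga2b and Gp9 did not pass between Treg and Tconv. Itga6, which pairs with CD151, was higher in Treg by 0.37 averaged. The Itga6 change was 0.63 in B6.H2g7 (limma adjusted p 0.00426) and 0.12 in NOD (limma adjusted p 0.844). Itga4, Itgal, Itgb1 and Itgb2, the chains of the main T cell integrins, did not pass in any comparison.

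Of the receptors and MHC molecules found in tetraspanin domains, Cd5 was higher in Treg by 0.66 and Cd6 by 0.48 averaged over strains. Icam1 was higher in Treg by 0.74 in NOD and 1.26 in B6.H2g7, and higher in NOD than in B6.H2g7 in Tconv by 0.62. Ifitm3, of the family whose human member binds CD81 on B cells, averaged 8.18 ± 0.36 in NOD Treg and 6.35 ± 0.22 in NOD Tconv, and 7.81 ± 0.16 in B6.H2g7 Treg and 6.28 ± 0.41 in B6.H2g7 Tconv (SD, n = 3 each). Its averaged change was 1.68. The MHC class II genes H2-Aa, H2-Eb1 and H2-DMa were higher in Treg by 1.65, 0.74 and 0.55 averaged, and H2-Ab1 did not pass. These genes are abundant in B cells and dendritic cells, whose marker sums are 2748 to 3333 (B cell) and 532 to 564 (dendritic cell) in NOD Treg, against 3196 to 3614 and 568 to 583 in NOD Tconv. In B6.H2g7 Treg they are 2917 to 3280 and 562 to 577, against 3434 to 3759 and 535 to 602 in B6.H2g7 Tconv. Most of the B cell sum comes from Ighm. Of the 7 B cell members Cd79b alone passed, higher in Treg by 0.79 averaged over strains (limma adjusted p 1.56e-05). The part of B cells and dendritic cells in the MHC class II changes was not tested. Cd4 fell by 0.40 in Treg averaged over strains. Hbegf, which binds CD9, was higher by 0.38 averaged (limma adjusted p 0.0496) and Kit by 0.48, with Kit dim in both Tconv groups. Hbegf, Cd4, Cd6 and H2-DMa passed in neither strain alone. The Kit change was 0.80 in NOD (limma adjusted p 0.00438) and 0.17 in B6.H2g7 (limma adjusted p 0.747).

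**Figure D5:**
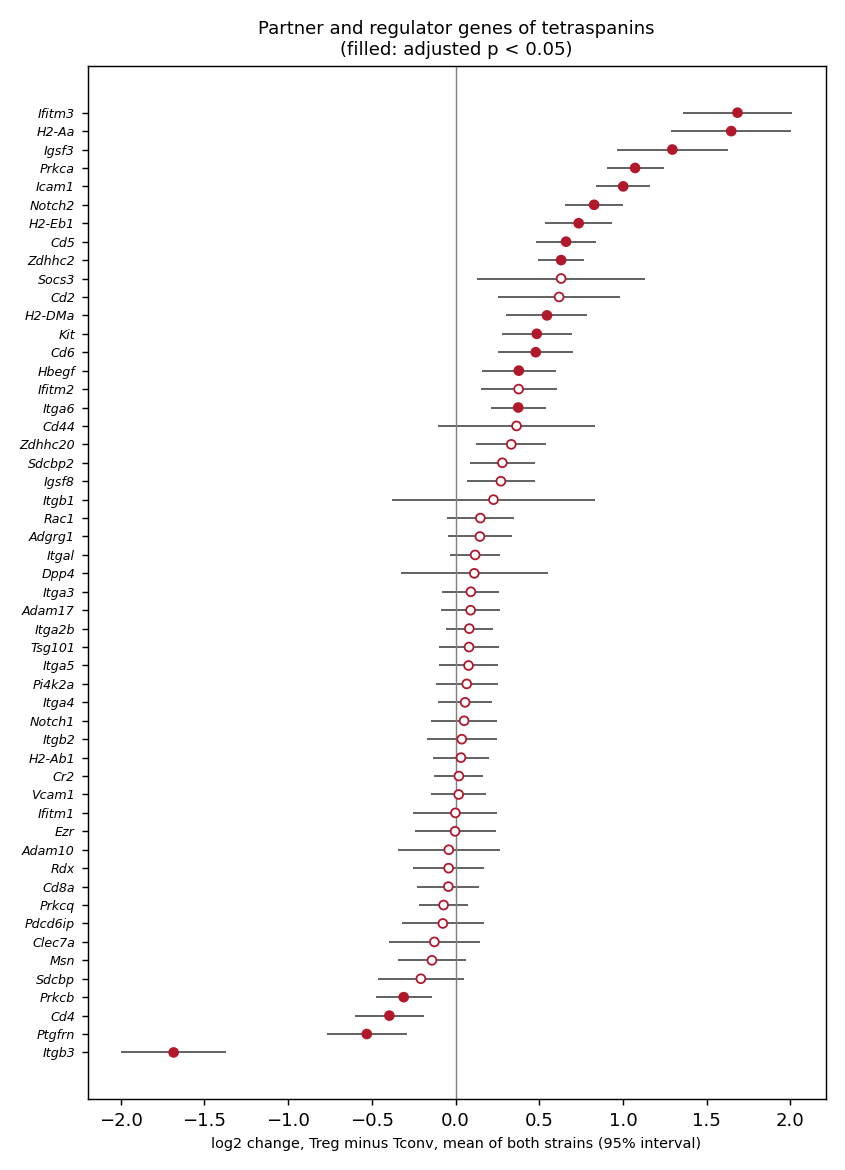
Change from Tconv to Treg averaged over strains (log2, horizontal axis, 95% interval) of the 52 measured partner and regulator genes, where filled points passed the limma adjusted p of 0.05. Ifitm3 and H2-Aa are the highest at 1.68 and 1.65, Itgb3 is the lowest at -1.68 and the open points lie between.

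For the strain difference in the Treg change none of the 52 partners passed in limma (0%, against 0.11% of all genes), with 9 at an unadjusted p under 0.05. Between NOD and B6.H2g7 5 passed in Treg, 2 higher and 3 lower (9.62%, against 3.33%), and 5 in Tconv, 2 higher and 3 lower (9.62%, against 3.05%). The 4 tetraspanin superfamily genes outside the naming rule, Upk1a, Upk1b, Prph2 and Rom1, which build bladder and photoreceptor membranes, did not pass in any comparison.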

How the data were processed

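Per the labels' protocols, Trizol RNA went through 2 amplification rounds and was then biotin labelled. The deposited values are RMA-normalized intensity, 1 per probe set for every array, not on a log scale. That the authors used RMA is stated in the submitters' processing notes. Which program and version they ran is not given in the sources used here. Replicates are independent pools, per the series text.

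Here log2 of each intensity was taken without a pseudocount, the 64 control probe sets were dropped, and the other 45037 were fitted with limma 3.58.1 in R 4.3.3 as a mean per group over all 12 arrays. Benjamini-Hochberg adjustment ran over all these probe sets, and a feature was called, or passed, at an adjusted p under 0.05. An exact permutation test of 3 arrays against 3 cannot go below 0.1, so none was used. The fitting was tested on simulated data. The 6 comparisons were Treg against Tconv in each strain and averaged, the strain difference in that change, and NOD against B6.H2g7 in each cell type. Those against the same group share its arrays.

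Members and lists were chosen with earlier results of these data known. Values per array are given for each tetraspanin called, for the 5 of highest mean (Cd53, Cd37, Tspan13, Tspan3 and Cd81) and for genes whose probe sets disagree. Others are given by range. Partners called in any comparison are named. The arrays hold no detection calls, and a probe set's level is not comparable with another's. The number of arrays limits the precision.

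Same-numbered arrays were checked for pairing by the correlation of their deviations from the group means. All exceeded 0.1 between NOD Treg and NOD Tconv (0.31 to 0.56) and between NOD Treg and B6.H2g7 Treg (0.30 to 0.67). They did not between B6.H2g7 Treg and B6.H2g7 Tconv (-0.08 to 0.52) or NOD Tconv and B6.H2g7 Tconv (-0.04 to 0.44).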

Additional observations from a re-analysis of the deposited data

How the results depend on the processing

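Each call was recomputed with other scalings, a filter on dim probe sets, array weights and the actin difference as a covariate. Further settings were the replicate block, only the groups' own arrays, probe set means, no replicate 1 arrays, and leaving out each array in turn. No tetraspanin call reversed direction, and partner genes were compared by their counts alone. The 3 tetraspanin genes called in NOD became 2 with quantile normalization (Tspan14 lost), 1 without the replicate 1 arrays and 1 to 3 without single arrays. The 2 called in B6.H2g7 became 1 with arrays centred on their median, with only the groups' arrays, or without the replicate 1 arrays, 5 with array weights, 4 with the actin covariate, and 1 to 3 without single arrays. The 3 called averaged over strains became 6 with array weights, 5 with probe set means, 4 with the actin covariate (Tspan13 gained) and 2 without the replicate 1 arrays (Tspan14 lost). The 0 called between NOD and B6.H2g7 in Treg became 1 (Tspan13) with the replicate block and 1 with the actin covariate. The 1 called in Tconv (Tspan9) became 0 with only the groups' arrays, without the replicate 1 arrays and with probe set means, and 0 to 1 without single arrays. Fewer arrays enter where arrays are left out; the cause of the other moves was not tested. Same-numbered arrays correlated throughout for the NOD cell types and for Treg between strains, and in those comparisons the block changed no other tetraspanin count. In B6.H2g7, where same-numbered arrays did not correlate throughout, the block added Tspan14 to the calls (limma adjusted p 0.0297). The block moved the partner counts to 8 between NOD and B6.H2g7 in Treg, against 5, and to 1 for the strain difference, against 0. Array weights called 20 partners in B6.H2g7, against 13, the actin covariate 9 in Treg between strains and 2 for the strain difference, and 3 passed in Tconv without replicate 2 of B6.H2g7 Tconv, against 5.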
